A study of Mus musculus with 24 samples.

Results

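The genes described here encode the enzymes that carry long-chain fatty acids into mitochondria and shorten them there: Acadvl, Acadl, Acadm, Acads, Hadha, Hadhb, Cpt1b, Cpt2, Etfdh and Acaa2. They were chosen by symbol, from the platform annotation of the array. Of these 10 genes, 9 had a probe in the deposited table and Hadhb had none. The 9 genes were measured by 10 probes, of which Acadm had 2, among 9834 genes with a single symbol. Each array compared RNA of an organ from Nur77-/- mice with RNA of the same organ from Nur77+/+ mice. Nur77 is the orphan nuclear receptor encoded by Nr4a1. The organs were skeletal muscle, heart, brown adipose tissue, lung, spleen and testis, with 4 arrays each and 24 in all. On replicates 1 and 2 the mutant pool carried the red dye Cy5, and on replicates 3 and 4 the green dye Cy3. The design text gives pools of 7 mice for each genotype, while the labelling protocol names another number of control animals. The labels leave out age, sex, strain background and the way the allele was made. Within an organ the 4 arrays repeat the same pool against pool comparison. The p-values below therefore measure the error between hybridisations and not the spread between animals. Only the tests over organ means measure the spread between organs, and organs of the same pools are not independent animals.

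Mitochondrial fatty acid oxidation begins with the carnitine shuttle, in which a carnitine palmitoyltransferase 1 enzyme (CPT1B is the muscle form) makes acylcarnitines and CPT2 turns them back into acyl-CoA inside the mitochondrion. Each round of beta-oxidation then runs through an acyl-CoA dehydrogenase matched to the chain length, hydration, a second oxidation and thiolytic cleavage. For long chains the last 3 of these steps are carried out by the mitochondrial trifunctional protein, made of HADHA and HADHB subunits. ETFDH hands the electrons of the acyl-CoA dehydrogenases to ubiquinone. Heart, oxidative skeletal muscle and brown fat depend on this pathway for energy or heat. Nur77 is known as a regulator of glucose and lipid metabolism in skeletal muscle.

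Before the values, the promoters of Acadvl and Hadha are printed, since these were the members that passed the test in an organ. Both sequences are RefSeq's (GRCm38.p6), from 250 bases before the annotated start to 50 after it, and both genes lie on the minus strand. Acadvl spans chr11:70010183-70015428 and its promoter window chr11:70015379-70015678. Hadha spans chr5:30119423-30154980 and its window chr5:30154931-30155230. The other genes lie on chromosomes 1 (Acadl), 3 (Etfdh and Acadm), 4 (Cpt2), 5 (Hadhb and Acads), 15 (Cpt1b) and 18 (Acaa2), and the part of each transcript that a probe covers is not known here. Capitals mark the hexamer AGGTCA, the core of the element that Nur77 and many other nuclear receptors bind.
Acadvl: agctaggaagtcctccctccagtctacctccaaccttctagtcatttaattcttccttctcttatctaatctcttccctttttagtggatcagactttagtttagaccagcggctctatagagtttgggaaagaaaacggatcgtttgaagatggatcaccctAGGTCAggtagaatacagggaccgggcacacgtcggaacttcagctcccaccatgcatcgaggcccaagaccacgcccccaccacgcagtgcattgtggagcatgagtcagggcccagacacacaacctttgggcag
Hadha: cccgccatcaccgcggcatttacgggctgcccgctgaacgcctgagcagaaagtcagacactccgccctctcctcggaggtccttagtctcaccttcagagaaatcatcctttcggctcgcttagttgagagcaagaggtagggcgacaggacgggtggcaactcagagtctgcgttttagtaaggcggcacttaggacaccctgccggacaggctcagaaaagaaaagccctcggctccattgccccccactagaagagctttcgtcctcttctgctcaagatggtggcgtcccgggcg
The Acadvl window held 1 AGGTCA, starting 87 bases before the start, and the Hadha window held none on either strand. RefSeq windows were found for 8 of the 10 genes, all except Cpt1b and Acaa2. AGGTCA was in 2 of these 8, Acadvl and Acadm, against 16.3% of the 32851 mouse promoter windows searched on both strands. The full Nur77 element AAAGGTCA was in 0 of 8, against 1.51% of all windows. The estrogen-related receptor element TCAAGGTCA was in 0 of 8 (0.423% of all) and the PPAR-type direct repeat, AGGTCA and AGGTCA with any 1 base between them, in 0 of 8 (0.0396% of all). All 3 longer motifs contain AGGTCA, so their matches overlap with it. Hadhb, the member without a probe, begins 272 bases from the start of Hadha on the opposite strand, and the windows of the pair therefore overlap.

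All values are log2 ratios of Nur77-/- over Nur77+/+, as deposited, so they are differences and not levels. The direction is likely but not stated by the submitters. It rests on Nr4a1, which was below 0 on 21 of its 22 arrays by a probe that may or may not cover the sequence that the mutation alters, and on the 4874 extreme values (size 15.7 or more), of which 2603 were positive with the mutant in Cy5 and 2271 negative with the mutant in Cy3. Repeats of an organ agreed little over all probes, with a median Spearman rho of 0.10 over 12 pairs of the same dye orientation and of -0.04 over 24 pairs of opposite orientation. The arrays held 13396 to 19455 values. Organs differed in noise. In skeletal muscle the median absolute deviation of its arrays was 0.934 to 1.75, in spleen 1.04 to 1.39, and that of the brown adipose tissue arrays 0.350 to 0.531. The medians of the muscle arrays were also uneven (-0.46, -0.81, 0.01 and 0.69 in replicates 1 to 4). Nr4a1 itself was at -2.55, -2.10 and -0.67 on 3 muscle arrays, a ratio of -1.73 ± 0.31 (SE) with a limma adjusted p of 0.00222. With 1 weight for each organ, estimated from complete rows, this call was lost (limma adjusted p = 0.15). No tested gene of the NR4A family, to which Nr4a1 belongs, passed the test in any other organ. Heart replicate 2 carries a wild-type channel labelled skeleton muscle and was kept. Since the files hold ratios, no organ could be checked against the level of its marker genes.

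**Figure D1:**
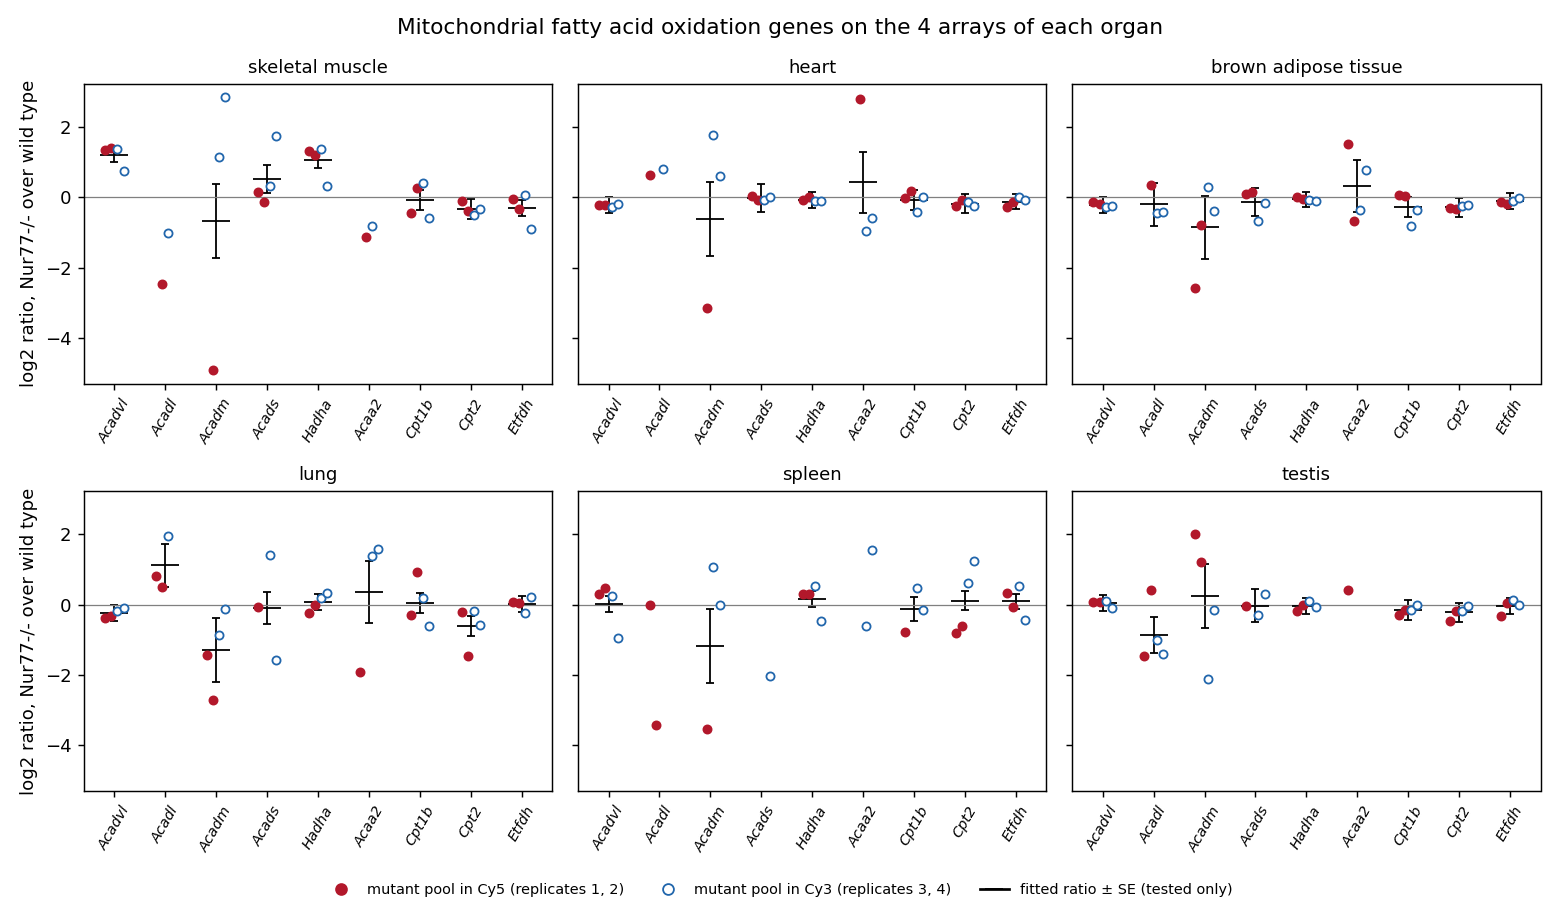
Log2 ratio of Nur77-/- over Nur77+/+ (vertical axis) for the 9 measured genes in each organ, with 1 point for each array. Filled red points are arrays with the mutant in Cy5, open blue points those with the mutant in Cy3, and bars are the fitted ratio ± SE where a gene was tested. Acadvl and Hadha lie above 0 on all 4 muscle arrays, while Acadm and Acaa2 spread over several log2 units.

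In skeletal muscle, Acadvl and Hadha were higher in the Nur77-/- pool, by a little over 1 log2 unit, and the other 5 tested members did not pass the test. Acadvl encodes very long-chain acyl-CoA dehydrogenase, which opens beta-oxidation of long acyl chains at the inner mitochondrial membrane. Hadha encodes the trifunctional subunit that works next on the same chains, with hydratase and hydroxyacyl-CoA dehydrogenase activity. Cpt2, Cpt1b, Etfdh and Acadm had fitted muscle ratios below 0 and Acads one above 0, none past the test. Bulk RNA cannot tell fewer cells of a type from less RNA per cell.

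The ratio of Acadvl was 1.34, 1.40, 1.36 and 0.76 in muscle replicates 1 to 4. All 4 arrays were above 0 in both dye orientations, and replicate 4 was the lowest. The fitted ratio was 1.22 ± 0.22 (SE, 4 arrays), a 2.32-fold higher level in Nur77-/- muscle (limma adjusted p = 0.00242). The ratio of Hadha was 1.32, 1.19, 1.38 and 0.33 in the same order, again above 0 on every array and lowest on replicate 4. Its fitted ratio was 1.06 ± 0.22, or 2.08-fold higher in Nur77-/- muscle (limma adjusted p = 0.0075). In muscle, 668 of 11974 rows passed the test in either direction (5.58%) and 402 were higher (3.36%), beside 2 of 7 tested members, both higher. Of the 7628 muscle rows with 4 values, 666 were above 0 on all 4 arrays (8.73%).

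Set against the median of its own array, Acadvl stood 1.80, 2.21, 1.35 and 0.07 above it and Hadha 1.77, 2.00, 1.38 and -0.35. On replicate 4, whose median was the highest, neither gene therefore stood clear of the array. Centring each array on its median gave 1.36 for Acadvl and 1.20 for Hadha (limma adjusted p = 0.0126 and 0.0318). With array weights the adjusted p was 0.00789 for Acadvl and 0.0124 for Hadha (limma, 196 rows called, 1.64%). With 1 weight for each organ, estimated from complete rows, both calls were lost, at adjusted p = 0.148 and 0.256 (limma, 36 rows called, 0.301%). Without replicate 1 or replicate 3 neither gene passed, and without replicate 2 Acadvl passed while Hadha did not (limma adjusted p over the 4 omissions from 0.00541 to 0.0561 for Acadvl and from 0.00732 to 0.106 for Hadha). Turning the sign of the arrays with the mutant in Cy3, as the other reading of the direction would need, also ended both calls, at 0.16 for Acadvl and 0.20 for Hadha.

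**Figure D2:**
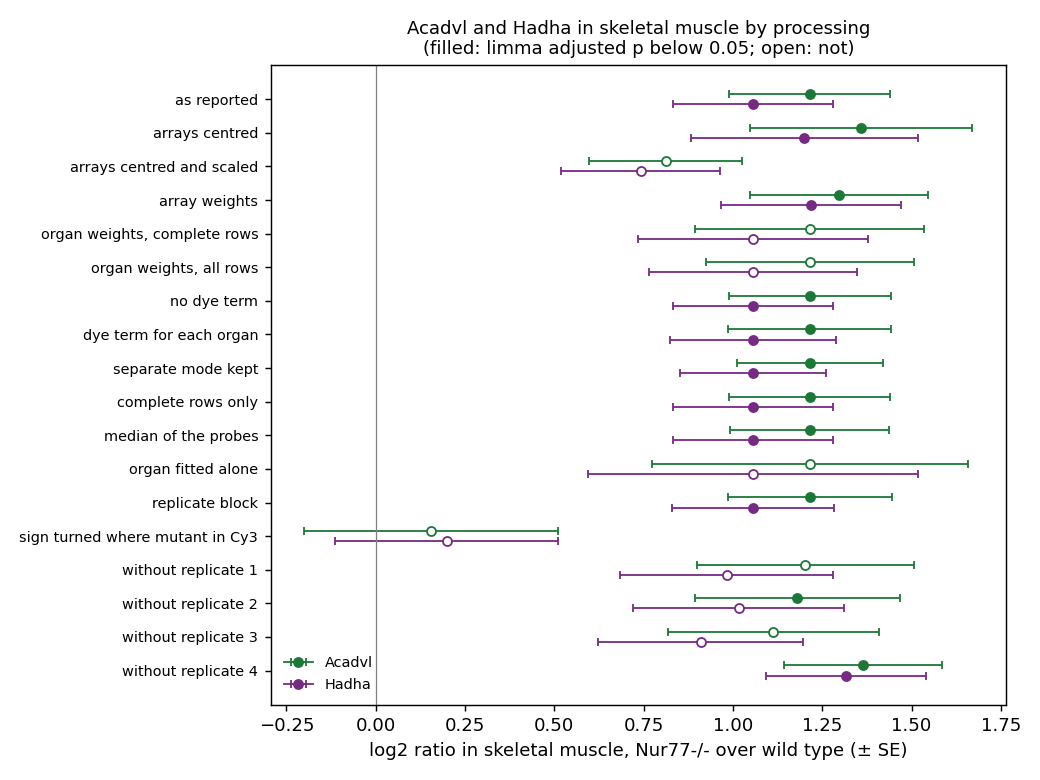
Log2 ratio of Nur77-/- over Nur77+/+ in skeletal muscle ± SE (horizontal axis) for Acadvl (green) and Hadha (purple), as reported and under each alternative setting. Filled points have a limma adjusted p below 0.05 and open points do not. All fitted ratios are above 0, with array weights the points are filled, and with 1 weight for each organ they are open at the same ratios of 1.22 and 1.06.

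Markers of the cells in the sample were listed beside this result. Of the skeletal muscle markers, 0 of 10 tested passed in muscle, with a median ratio of 0.16 and a range from -0.63 to 1.11. The highest of them, Ckm, the muscle creatine kinase, had 1.46, 1.41, 1.32 and 0.28 in replicates 1 to 4, with replicate 4 again the lowest (limma adjusted p = 0.128). Of the cardiac and slow muscle markers, 0 of 6 passed, with a median of 0.22. Of the 5 tested brown adipocyte markers 1 rose, Cidea, a lipid droplet protein, at 1.84 ± 0.45 (limma adjusted p = 0.0204), and the list ranged from -1.11 to 1.84 with a median of -0.55. Ucp1, the defining brown fat uncoupler, was measured on 2 muscle arrays only, at -2.64 and -2.86. Of the white adipocyte markers 0 of 2 passed (0.27 and 0.56). The part of these markers in the result was not tested.

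Outside skeletal muscle no measured member passed the test. In heart 0 of 8 tested members were called (limma, 0% of rows called), in brown adipose tissue 0 of 9 (0%), in lung 0 of 9 (0.0809%), in spleen 0 of 6 (1.53%) and in testis 0 of 8 (0%). At an unadjusted p under 0.05, the count was 1 of 9 members in lung (Cpt2), where 6.62% of all rows had one, and 0 in each of the other 4 organs, where the shares over all rows were 2.05% in heart, 0.670% in brown adipose tissue, 15.4% in spleen and 3.62% in testis. With array weights and with 1 weight for each organ the count of calls was again 0 in each of these organs.

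In the other organs the fitted ratios of Acadvl and Hadha did not pass the test, and their single arrays scattered most in spleen. Acadvl was at -0.22, -0.23, -0.28 and -0.18 in heart, at -0.13, -0.18, -0.28 and -0.25 in brown adipose tissue and at -0.38, -0.32, -0.19 and -0.09 in lung. It was thus slightly below 0 on all 12 arrays of these organs, by less than 2 SE of the model in each. In spleen it had 0.30, 0.47, 0.25 and -0.96, with replicate 4 apart from the others, and in testis 0.08, 0.06, 0.11 and -0.08. In order of the fitted ratio, Acadvl stood at 1.22 in muscle, 0.04 in testis, 0.02 in spleen, -0.21 in brown adipose tissue, -0.23 in heart and -0.25 in lung. Each had an SE of 0.22, so that only muscle was separated from its neighbour in this order by more than 2 SE. This SE shares 1 spread over all organs, while the SD of the arrays was 0.04 in heart, 0.30 in muscle and 0.66 in spleen. With 1 weight for each organ, estimated from complete rows, the SE was 0.32 in muscle and 0.11 in heart. Acadvl in heart then lay more than 2 SE below 0 but did not pass (limma adjusted p = 0.465).

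Hadha was at -0.07, -0.002, -0.11 and -0.10 in heart and at -0.002, -0.05, -0.09 and -0.11 in brown adipose tissue. In lung it had -0.24, -0.01, 0.17 and 0.33, in spleen 0.30, 0.29, 0.53 and -0.46 and in testis -0.17, -0.004, 0.11 and -0.07. Its fitted ratios after muscle were 0.16 in spleen, 0.06 in lung, -0.03 in testis, -0.06 in brown adipose tissue and -0.07 in heart, again with an SE of 0.22 each. Both genes were lowest on spleen replicate 4.

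The test of the difference between organs did not single out any member. It could be run for the 6 members tested in every organ, and called 0 of them against 74 of 7553 rows (0.98%). Acadvl came nearest (limma F test, adjusted p = 0.0787), followed by Hadha (adjusted p = 0.281), and these 2 were the members with an unadjusted p under 0.05, as had 10.1% of all rows. Array weights called 0 members as well. With the extreme values kept, Acadvl passed at an adjusted p of 0.0449. A difference of Acadvl or Hadha between organs was therefore not established at this threshold. Muscle was not contrasted with the other organs in a test of its own.

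Across arrays, after subtraction of each array's median, Acadvl and Hadha varied together, with a Pearson r of 0.96 over 24 arrays and of 0.89 over the 20 arrays that remain without muscle. The arrays share pools, array noise and organ, so this is a description. Genes that were no members came nearly as close by the same measure. Among 2844 genes with a value on all 24 arrays, those most like Acadvl were Dcaf13 (0.92), Jph2 (0.91), Parp1 (0.91), Id1 (0.91) and Tubb4b (0.90). Those most like Hadha were Parp1 (0.94), Sar1a (0.93), Asic2 (0.92), Dcaf13 (0.90) and Cab39 (0.90). Between Acadvl and the other members r ran lower: 0.50 with Acads over 19 arrays, 0.48 with Etfdh over 24, 0.43 with Cpt1b over 23 and 0.15 with Cpt2 over 24. It was negative with Acadl (-0.56 over 16 arrays), Acaa2 (-0.25 over 15) and Acadm (-0.24 over 21).

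**Figure D3:**
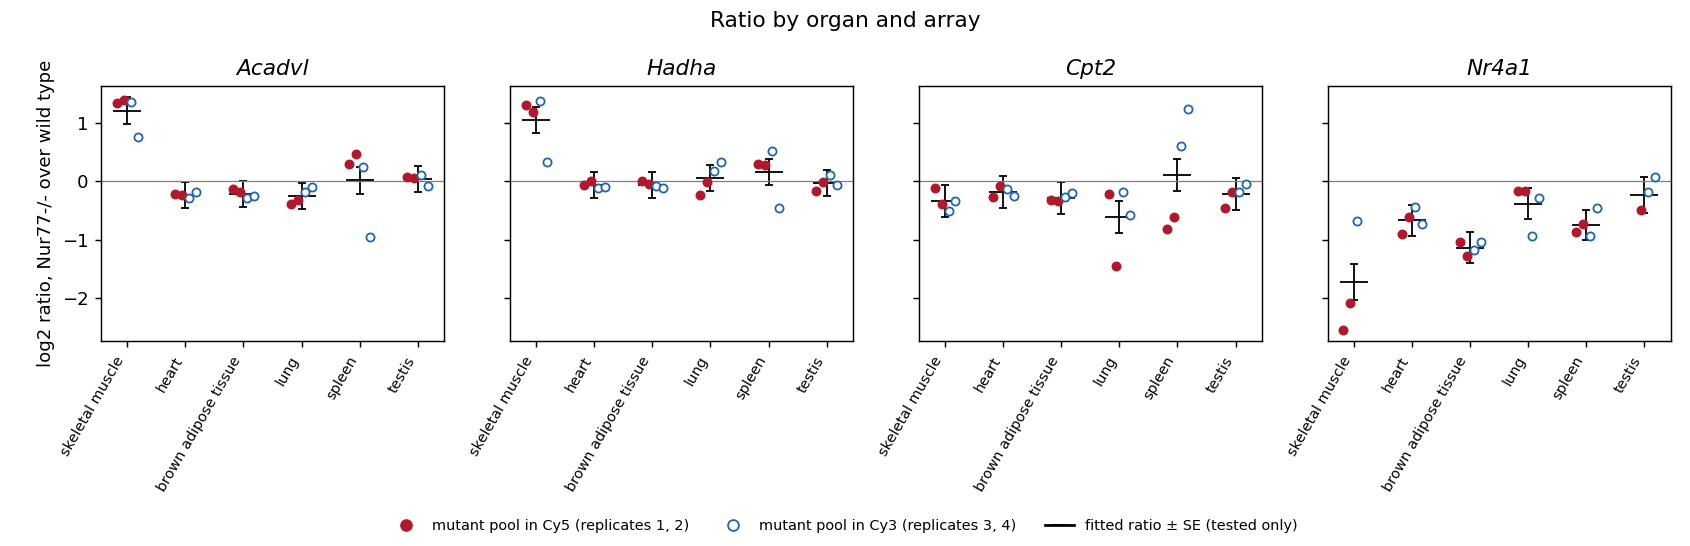
Log2 ratio of Nur77-/- over Nur77+/+ on each array (vertical axis) by organ, for Acadvl, Hadha, Cpt2 and Nr4a1, the gene of Nur77. Filled red points are arrays with the mutant in Cy5, open blue points those with the mutant in Cy3, and bars are the fitted ratio ± SE. Acadvl and Hadha are above 0 on every muscle array and on both sides of 0 over the other 5 organs, with the widest scatter of Acadvl and Hadha there in spleen, Cpt2 is below 0 on every array outside spleen, and Nr4a1 is below 0 on 21 of 22 arrays.

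Of the carnitine shuttle genes, Cpt2 was the member with the steadiest sign. It was below 0 on 22 of 24 arrays, the exceptions being spleen replicates 3 and 4, and below the median of its own array on 20 of 24. In muscle it had -0.11, -0.39, -0.51 and -0.33, in heart -0.26, -0.08, -0.14 and -0.25 and in brown adipose tissue -0.32, -0.34, -0.26 and -0.21. Set against the median of each muscle array, Cpt2 split by dye. It stood at 0.35 and 0.42 with the mutant in Cy5, and at -0.515 and -1.02 with the mutant in Cy3. In testis Cpt2 had -0.46, -0.19, -0.19 and -0.05 as deposited. The differences were small, with fitted ratios of -0.33 in muscle, -0.28 in brown adipose tissue, -0.22 in testis and -0.18 in heart, each with an SE of 0.27.

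In lung Cpt2 had -0.22, -1.45, -0.18 and -0.58, below 0 on all 4 arrays and lowest on replicate 2. The fitted ratio there was -0.61 ± 0.27 (limma adjusted p = 0.702). Spleen split by dye: -0.82 and -0.62 on the arrays with the mutant in Cy5, and 0.61 and 1.25 on those with the mutant in Cy3. Of 3630 rows with 24 values, 13 were below 0 on 22 or more arrays (0.358%). Over the 6 organ means Cpt2 was at -0.25 ± 0.13 (limma adjusted p = 0.702), so the recurring sign did not pass the test. No row passed that test over organs (0 of 7553, 0%), while 431 rows had an unadjusted p under 0.05.

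Cpt1b encodes the muscle form of the outer membrane enzyme at which malonyl-CoA restrains the pathway. In muscle it had -0.44, 0.28, 0.41 and -0.60, with both signs in each dye orientation, and a fitted ratio of -0.09 ± 0.28. In heart it was at -0.01, 0.17, -0.43 and -0.01 and in brown adipose tissue at 0.07, 0.04, -0.81 and -0.36. The fitted ratios were -0.07 in heart, -0.27 in brown adipose tissue, -0.16 in testis and 0.05 in lung. In spleen, where 1 array had no value, it was -0.13 ± 0.33. None passed the test.

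The medium-chain, long-chain and short-chain acyl-CoA dehydrogenases were measured with less precision than Acadvl. Acads, the short-chain enzyme, had 0.16, -0.12, 0.33 and 1.74 in muscle, where replicate 4 stood above the others and the fitted ratio was 0.52 ± 0.40. In heart its values lay close to 0 on all 4 arrays (0.05, -0.08, -0.08 and 0.001). It was at 0.10, 0.16, -0.67 and -0.18 in brown adipose tissue, and in spleen it had a value on 1 array only (-2.02). In lung its 3 values were -0.07, 1.42 and -1.58, which leaves no direction.

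Acadm, the medium-chain dehydrogenase, took different values in the 2 dye orientations. On the arrays with the mutant in Cy5 it was at -4.92 in muscle, -3.15 in heart, -2.58 and -0.78 in brown adipose tissue, -1.45 and -2.71 in lung and -3.55 in spleen. On those with the mutant in Cy3 it was at 1.16 and 2.84 in muscle, 1.76 and 0.62 in heart, 0.31 and -0.38 in brown adipose tissue, -0.88 and -0.12 in lung and 1.08 and -0.002 in spleen. Within each of these 5 organs every Cy5 value, averaged over the probes present, lay below every Cy3 value. Testis ran the other way, at 2.00 and 1.22 with the mutant in Cy5 and -2.11 and -0.16 with the mutant in Cy3. Within 1 probe the order failed in lung, with -0.98 on replicate 1 (Cy5) and -1.40 on replicate 3 (Cy3).

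The dye term of Acadm was -2.14 ± 0.81 (limma adjusted p = 0.292), the only one of 6 members with an unadjusted p under 0.05, beside 12.7% of all rows. The dye term was called for 0 of the 6, against 17 of 7553 rows (0.225%). Over the 6 organ means Acadm was at -0.98 ± 0.23, below 0 in 5 of 6 organs (limma adjusted p = 0.702), the only member with an unadjusted p under 0.05 there, beside 5.71% of all rows. The fitted ratios by organ were -0.66 ± 1.05 in muscle, -0.61 ± 1.05 in heart, -0.86 ± 0.90 in brown adipose tissue, -1.29 ± 0.90 in lung, -1.18 ± 1.05 in spleen and 0.24 ± 0.90 in testis. The organ means above weigh the 2 dye orientations equally, so they differ from these fitted ratios where an array had no value. Both Acadm probes had a value on 10 arrays and were of opposite sign on 1 of these.

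Acadl, the long-chain dehydrogenase, had a value on 16 arrays. It could not be tested in muscle (-2.46 and -1.01 on 2 arrays), heart (0.63 and 0.81) or spleen (-0.02 and -3.415). In lung it had 0.83, 0.51 and 1.96, all above 0, for a ratio of 1.13 ± 0.61 (limma adjusted p = 0.838). In testis it had -1.48, 0.42, -1.01 and -1.40, with replicate 2 on the other side of 0, for a ratio of -0.87 ± 0.52. In brown adipose tissue replicate 1 held an extreme value of 16.5, treated as not measured, and the other 3 arrays gave -0.20 ± 0.61.

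Acaa2, which encodes the mitochondrial 3-ketoacyl-CoA thiolase that cuts acetyl-CoA from shorter chains, had a value on 15 arrays. In brown adipose tissue it was at 1.503, -0.68, -0.35 and 0.77, with both signs in each dye orientation (0.31 ± 0.74). In heart it was at 2.80, -0.95 and -0.60 on replicates 2 to 4, and in lung at -1.92, 1.38 and 1.59 beside an extreme value of 17.0 on replicate 2. It was not tested in muscle (-1.13 and -0.82), spleen or testis. On heart replicate 2, with its wild-type channel labelled skeleton muscle, Acaa2 and Acadm were far from heart replicates 3 and 4. Replicate 1, the other heart array with the mutant in Cy5, held neither gene, so label and dye orientation cannot be told apart. Acadvl (-0.23), Hadha (-0.002), Cpt2 (-0.08) and Etfdh (-0.15) on replicate 2 were not far from the other heart arrays.

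Etfdh varied least of all members, with an SD of 0.282 over 24 arrays, against 2.02 for Acadm. In brown adipose tissue it had -0.14, -0.19, -0.12 and -0.01, and in heart -0.28, -0.15, 0.02 and -0.08. In muscle it had -0.06, -0.33, 0.07 and -0.91, a ratio of -0.31 ± 0.22. In the other 3 organs its fitted ratios were 0.02 in lung, 0.09 in spleen and -0.03 in testis. None of these passed the test.

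The median ratio over the tested members was small in every organ. It was -0.09 in muscle beside -0.16 over all tested rows, -0.10 in heart beside -0.02, and -0.20 in brown adipose tissue beside -0.07. It was 0.02 in lung beside -0.01, 0.05 in spleen beside -0.07 and -0.03 in testis beside 0.02. By dye orientation the median in muscle was -0.08 with the mutant in Cy5 and 0.86 with the mutant in Cy3, the widest split of the 6 organs. The medians over all values of the muscle arrays split alike, at -0.46 and -0.81 with the mutant in Cy5 and 0.01 and 0.69 with the mutant in Cy3. Members below 0 numbered 4 of 7 in muscle, 7 of 8 in heart, 8 of 9 in brown adipose tissue, 4 of 9 in lung, 2 of 6 in spleen and 6 of 8 in testis.

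Genes around the pathway were counted in 6 lists that hold 81 genes, of which 59 had a probe. The other enzymes of mitochondrial beta-oxidation gave 0 calls among 12 tested in muscle (median -0.10). The carnitine and acyl-CoA activation genes gave 0 of 9 (median -0.02), peroxisomal beta-oxidation 0 of 9 (-0.17), fatty acid uptake and release 0 of 10 (-0.02) and ketone metabolism 0 of 2 (-0.38). Of 9 regulators and PPAR targets 1 rose (median -0.50). That gene was Pdk2, an inhibitory kinase of the pyruvate dehydrogenase complex, through which glucose-derived carbon enters mitochondrial oxidation. Pdk2 had 1.39, 1.32, 1.86 and 0.87 in muscle replicates 1 to 4, above 0 on every array.

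The fitted ratio of Pdk2 was 1.36 ± 0.22, or 2.57-fold higher in Nur77-/- muscle (limma adjusted p = 0.000649). With 1 weight for each organ its call was lost where the weights came from complete rows (limma adjusted p = 0.0733) and kept where they came from all rows (0.0278). The call was also lost with arrays centred and scaled (limma adjusted p = 0.0608) and with muscle fitted alone (0.590). In the lists together, 1 of 51 genes tested in muscle passed and 9 had an unadjusted p under 0.05, as had 20.2% of all muscle rows. In the other organs 0 passed: of 54 in heart, 58 in brown adipose tissue, 50 in lung, 47 in spleen and 51 in testis, with 0, 0, 5, 8 and 1 at an unadjusted p under 0.05 (limma; with array weights 0 passed there too). Over all rows the shares with such a p were 6.62% in lung, 15.4% in spleen and 3.62% in testis. In spleen, 8 of 9 tested exocrine pancreas markers fell, with a median of -4.26 and a range from -6.68 to 1.89. There Tnni2 fell among 5 skeletal muscle markers, Myh7 rose among 8 cardiac and slow muscle markers and Cidea rose among 5 brown adipocyte markers. In lung 3 of 10 skeletal muscle markers fell, with a median of -1.51 and a range from -3.46 to 2.19, and Myl2 rose among 6 cardiac and slow muscle markers. Their part in the values of these organs was not tested.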

How the data were processed

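RNA of 6 organs was compared on 2-colour arrays, 20 µg of total RNA per labelling per the labels' protocols. The values are the authors' deposited log2 ratios. No label or header names their scale, centring, direction, background correction or software. Base 2 was inferred from the extreme values, whose size lies near the log2 range of a 16-bit signal, although some exceed it (17.0 for Acaa2 in lung). Values with a size above 12 were treated as not measured, and arrays were not centred.

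Of 20205 probes, 13891 had 1 symbol in the platform annotation, 5 several and 6309 none. The Entrez numbers of 13855 matched RefSeq, and 0 symbols changed. Probes of a symbol were averaged, which gave 16148 rows. Members were found by symbol.

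limma 3.58.1 in R 4.3.3 (lmFit, eBayes) was fitted to all 24 arrays with 6 organ coefficients and 1 dye term, and adjusted by Benjamini-Hochberg over all rows tested in an organ, with a threshold of 0.05. A row was tested with at most 1 missing array and both dye orientations present. Differences between organs used limma's F test. Organ means were tested with limma too. SE is that of the model, which shares 1 spread for each gene over all organs, and the number of arrays limits the precision. The code was tested on simulated data.

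All members were named, as were Nr4a1, genes of the pathway lists that passed, and the 5 genes nearest in profile to Acadvl, Hadha and the members' mean. Ckm, Ucp1, Cidea, Tnni2, Myh7 and Myl2 were picked from the marker lists after their values were seen. Members and lists were chosen with earlier results of these data known. Alternatives were centring, scaling, weights, dye terms, missing values, probe averaging, a replicate block, turned signs and omitted arrays.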

Additional observations from a re-analysis of the deposited data

Results flagged for a closer look

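Of 42 sets of 4 arrays in an organ, for a member, Nr4a1 or Pdk2, 2 held an array far from the rest (Dixon's test). Chance gives about 1 in 20 such sets. Acadvl in skeletal muscle was 0.759 on replicate 4, while the other 3 arrays lay between 1.344 and 1.396. Acadvl in spleen was -0.958 on replicate 4, while the other 3 lay between 0.253 and 0.468.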

How the results depend on the processing

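The direction of the ratios, their scale, the pool size and the number of arrays limit every value. Over 60 pairs of the same number in different organs, deviations had a median r of -0.06, and 0 arrays correlated best with their own number. Arrays of the same number share a dye orientation, and removing the dye term lowers their r. Whether replicate numbers pair the arrays was therefore not settled. With a replicate block 2 members passed in muscle and 572 rows, and Acadvl and Hadha had adjusted p = 0.00435 and 0.0108 (limma).

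The 2 member calls in muscle fell to 0 with arrays centred and scaled, with organ weights from complete rows or from all rows (chosen after seeing the data) and with muscle fitted alone. With signs turned 1 passed, Acadm, lower in the mutant at -3.28. Without 1 replicate the count was 0 to 2. Rows called in muscle, 668, were 903 with signs turned and 60 after centring and scaling. They were 196 with array weights, and 36 and 77 with organ weights. They were 0 with muscle alone, which leaves fewer arrays and only the spread within muscle, and 235 to 345 without 1 replicate. With extreme values kept, 1 member differed between organs (Acadvl). The median over members in muscle, -0.09, was 0.22 in complete rows and -0.40 to 0.25 without 1 replicate. In brown adipose tissue it was -0.11 after centring and scaling and 0.056 with signs turned, in heart -0.13 and 0.013. In lung it was -0.15 with signs turned and -0.24 to -0.0011 without 1 replicate. Pdk2 in muscle went to -0.0048, close to 0, with signs turned, and lost its call (limma adjusted p = 0.995). The causes were not tested. Of 901 single-gene alternatives, 832 kept side and direction or moved by less than the spread between arrays, and 36 moved by more. Of the rest, 26 lost a call, 6 gained one and 1 lost its call with a change of sign. Most alternatives were of values without a call, which cannot lose one. The lost calls were all among Acadvl, Hadha, Nr4a1 and Pdk2 in muscle, the only called values here. Over-organ and dye counts kept 0 calls under each setting run.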

Other observations

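By the rule for likeness, the genes nearest to the mean of the measured members were Mettl3, an RNA methyltransferase subunit (Pearson r = 0.82 over 24 arrays), Abhd1 (0.77), Inpp5f (0.71), Sntb2 (0.71) and Tshb (0.70), each after subtraction of the array median. The arrays share pools and array noise, and noisy members such as Acadm weigh most in this mean.

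Several wider pathway genes had low muscle ratios that did not pass the test. They were chosen after their values were seen. Acad11, an acyl-CoA dehydrogenase family member, was at -0.42, -2.93 and -2.23 on 3 muscle arrays (limma adjusted p = 0.0773). Abcd3, a peroxisomal membrane transporter of acyl-CoA, was at -0.53, -0.62, -0.68 and -1.49, below 0 on all 4 arrays (limma adjusted p = 0.0533). The medians of muscle replicates 1 and 2 were themselves below 0, at -0.46 and -0.81. Slc22a5, the plasma membrane carnitine transporter, was at -2.13, -1.35, -0.54 and -0.14 (limma adjusted p = 0.059). With array weights the limma adjusted p was 0.633 for Acad11, 0.431 for Abcd3 and 0.0882 for Slc22a5. With 1 weight for each organ, estimated from complete rows, it was 0.699, 0.846 and 0.583. Mgll, of the fatty acid uptake and release list, went the other way in muscle, at 0.76 (limma adjusted p = 0.159).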
